A study of Homo sapiens with 12 samples.

Results

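The 10 genes described here are the epithelial cadherin gene CDH1, the neural cadherin gene CDH2, the epithelial surface gene EPCAM, the intermediate filament gene VIM, and 6 transcription factor genes of the epithelial-mesenchymal transition (EMT), ZEB1, ZEB2, SNAI1, SNAI2, TWIST1 and GRHL2. They were taken by symbol from the 26475 genes of the deposited RNA sequencing table, and all 10 were found. RNA was measured in PA-1, a human ovarian teratocarcinoma line grown in DMEM, and in SK-OV-3, a human ovarian adenocarcinoma line grown in RPMI. Both media held fetal bovine serum, penicillin and streptomycin. BAY-850 was given at 5 µM over 48 h and DMSO was its vehicle control, with 3 libraries in each of the 4 groups. BAY-850 is a small molecule that keeps the bromodomain of ATAD2 from binding acetylated histones. According to the study, SK-OV-3 lacks endogenous p53 through a deletion and PA-1 carries a mutated p53. Line and medium cannot be told apart in any comparison between PA-1 and SK-OV-3.

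EMT is a change in which epithelial cells lose the junctions that hold them in sheets and take on a spindle shape and a motile behaviour. E-cadherin, the product of CDH1, joins neighbouring epithelial cells, while N-cadherin, the product of CDH2, is the usual cadherin of mesenchymal and neural cells. The zinc finger proteins of ZEB1, ZEB2, SNAI1 and SNAI2 repress CDH1 by binding E-boxes in its regulatory DNA, and TWIST1 is a helix-loop-helix factor that acts in the same transition. GRHL2 works in the other direction, as an activator of epithelial genes that opposes ZEB1. Ovarian tumour cells often carry epithelial and mesenchymal features together, and EPCAM is a common surface antigen of carcinomas of this organ.

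Promoter windows of 3 members are shown to give the letters around their starts, where the core E-box of the ZEB and SNAI proteins occurs in some and not in others, and because ZEB1 is overlapped by an antisense gene whose level fell in PA-1. Windows were matched by symbol and are reported for CDH2, VIM, ZEB1 and ZEB2, which makes 4 of the 10 genes. Each runs from 250 bases before a RefSeq start site to 50 bases after it, on GRCh38.p14, 5′ to 3′ on the strand of the gene, and capitals mark CACCTG or its complement CAGGTG, the core E-box of the ZEB and SNAI proteins. The ZEB1 window at chr10:31318966-31319265, plus strand, is 1 of 7 windows of that gene and held the core 3 times.
ZEB1: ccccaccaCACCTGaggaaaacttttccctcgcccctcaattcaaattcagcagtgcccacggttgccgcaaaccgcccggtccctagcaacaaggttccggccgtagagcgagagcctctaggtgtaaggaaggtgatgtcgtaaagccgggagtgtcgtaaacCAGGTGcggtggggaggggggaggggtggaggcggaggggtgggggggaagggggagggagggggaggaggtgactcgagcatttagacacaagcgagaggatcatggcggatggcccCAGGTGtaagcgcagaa
The ZEB2 window at chr2:144520070-144520369, minus strand, held no CACCTG.
ZEB2: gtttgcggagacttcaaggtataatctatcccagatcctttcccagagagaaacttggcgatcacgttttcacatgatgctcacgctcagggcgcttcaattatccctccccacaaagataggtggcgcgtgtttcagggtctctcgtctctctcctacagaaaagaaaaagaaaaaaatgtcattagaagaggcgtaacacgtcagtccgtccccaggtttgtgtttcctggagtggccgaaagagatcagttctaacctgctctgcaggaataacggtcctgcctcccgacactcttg
The CDH2 window at chr18:28177081-28177380, minus strand, held none either.
CDH2: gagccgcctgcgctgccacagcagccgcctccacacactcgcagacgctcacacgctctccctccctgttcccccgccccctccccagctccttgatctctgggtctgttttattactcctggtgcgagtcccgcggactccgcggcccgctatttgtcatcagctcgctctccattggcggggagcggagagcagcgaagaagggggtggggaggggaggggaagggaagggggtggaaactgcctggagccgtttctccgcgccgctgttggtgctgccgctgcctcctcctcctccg
In the ZEB1 window the sites began 242 and 85 bases before the start site and at base 34 after it. CACCTG on either strand occurred in 7231 of 35116 promoter windows of this length (20.6%), and the wider E-box CANNTG, of which CACCTG is 1 form, occurred in 68.7%. A second ZEB1 window, at chr10:31318167-31318466, held the core once, and the remaining windows of that gene held none. The ZEB1 window printed is thus the one with the most cores. A second CDH2 window, at chr18:28036592-28036891, and the VIM window held none.

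The libraries held 34544505 to 51840233 expected counts, so that a floor of 3 counts stood at 0.0559 to 0.0868 CPM (CPM, counts scaled to a common library size with TMM factors over the 12 libraries). Ribosomal RNA genes took 7.94% to 16.9% of a library. The third BAY-850 library of SK-OV-3 was the deepest but had counts for the fewest genes, 15629 against 17425 to 18414 in the others. The line labels were checked against marker genes. The 6 stem cell markers listed for PA-1 were POU5F1, SOX2, LIN28A, L1TD1, SALL4 and DPPA4. They summed to 1314 to 1586 CPM in PA-1 libraries and to 6.48 to 10.4 CPM in SK-OV-3 libraries. L1TD1 and DPPA4 added little to the PA-1 sum, at 0.448 and 1.80 CPM in PA-1 with DMSO. The 7 markers listed for SK-OV-3 were ERBB2, KRT7, KRT8, KRT18, KRT19, PAX8 and MUC16. They summed to 923 to 1054 CPM in PA-1 and to 3181 to 4615 CPM in SK-OV-3. With DMSO, 6 of the 7 were higher in SK-OV-3 and 1, KRT18, was lower. KRT8 stood at 532 CPM in PA-1 and 599 CPM in SK-OV-3 with DMSO, and KRT18 at 335 and 266 CPM. KRT8 and KRT18 thus marked neither line and made up most of the PA-1 sum. MUC16, the gene of the ovarian antigen CA125, was near absent in SK-OV-3 with DMSO, at 0.738 CPM.

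The first question was how the 10 genes stood in the lines with DMSO alone. All 9 genes that passed the filter on low counts differed between SK-OV-3 and PA-1 with DMSO, 5 higher in SK-OV-3 (CDH1, EPCAM, ZEB1, SNAI2 and TWIST1) and 4 lower (CDH2, VIM, ZEB2 and SNAI1). Of all 16070 genes tested in that comparison, 80.3% were called, 40.1% higher and 40.2% lower, so a share this high was the rule between these lines. The groups did not overlap for any of the 9, as was true of 82.3% of all genes tested. A call means an adjusted p under 0.05 in edgeR's quasi-likelihood test with the Benjamini-Hochberg adjustment over all genes tested, and this holds for every adjusted p given here. GRHL2 did not pass the filter.

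**Figure D1:**
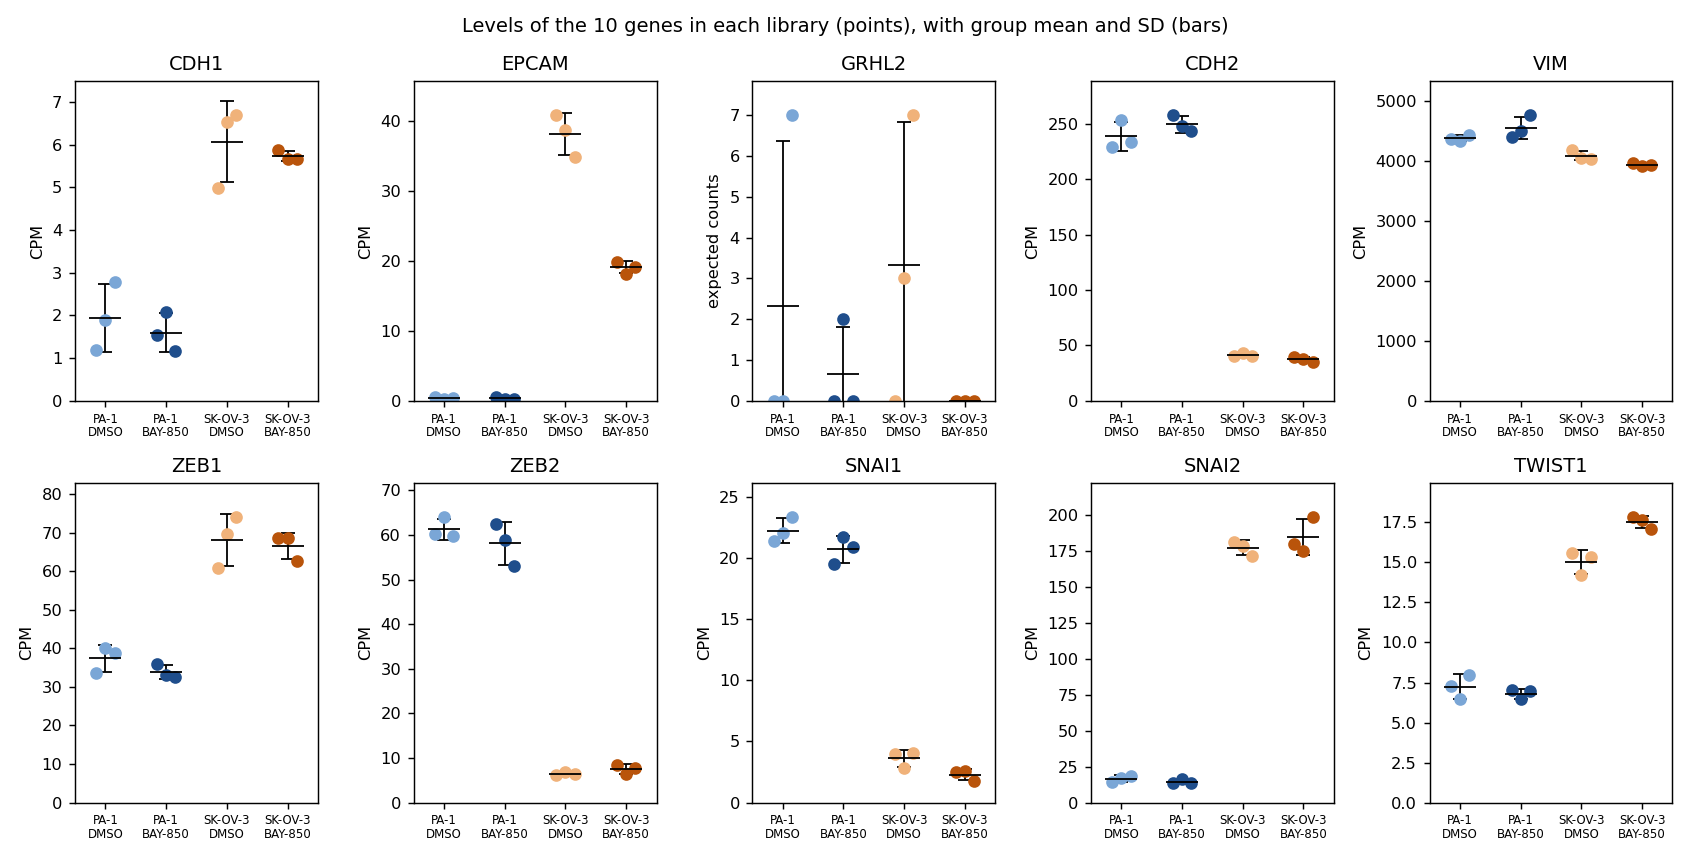
Level of each of the 10 genes in each of the 12 libraries, in CPM from 0 (GRHL2 in expected counts), by line and treatment. Points are libraries, and bars give the mean and SD of 3 libraries. EPCAM in SK-OV-3 lies at 34.9 to 40.8 CPM with DMSO and at 18.2 to 19.9 CPM with BAY-850, and the gaps between the lines exceed those between treatments for CDH1, CDH2, ZEB1, ZEB2, SNAI1, SNAI2 and TWIST1.

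The cadherin pair differed in opposite directions. CDH1 (chr16:68737225-68835548, plus strand, GENCODE on GRCh38) stood at 1.19, 1.89 and 2.77 CPM in the 3 PA-1 libraries with DMSO and at 4.98, 6.54 and 6.69 CPM in those of SK-OV-3. The lowest SK-OV-3 library was above the highest PA-1 library, and the fitted difference was 1.63 on the log2 scale (SE 0.281, adjusted p = 0.000147), or 3.10-fold. PA-1 libraries held 41 to 98 reads of CDH1, and the highest of the 3 had over 2 times the level of the lowest. CDH2 (chr18:27950966-28177446, minus strand) stood at 229, 253 and 233 CPM in PA-1 and at 40.4, 43.0 and 40.2 CPM in SK-OV-3. The groups lay far apart, with CDH2 5.80-fold lower in SK-OV-3 (log2 difference -2.54, SE 0.0621, adjusted p = 1.17e-12).

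Within each library CDH2 exceeded CDH1 per kilobase of exon, in both lines and under both treatments. The ratio of CDH2 to CDH1 per kilobase was 94.1 to 216 in PA-1 with DMSO and 6.73 to 9.07 in SK-OV-3 with DMSO. The carcinoma line thus had the smaller excess of the mesenchymal cadherin, and no library had more CDH1 than CDH2.

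EPCAM (chr2:47345158-47387601, plus strand), which codes for a cell adhesion molecule of epithelial surfaces, had the largest difference of the 9 genes. Its level was 0.607, 0.333 and 0.481 CPM in PA-1 with DMSO, from 15 to 21 reads a library, and 40.8, 38.7 and 34.9 CPM in SK-OV-3 with DMSO. The difference was 6.35 on the log2 scale (SE 0.164, adjusted p = 1.93e-12), or 81.7-fold. In bulk RNA, fewer cells with a transcript and less transcript per cell cannot be told apart.

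VIM (chr10:17228259-17237593, plus strand), which codes for the filament protein vimentin of mesenchymal cells, was by far the most abundant of the 10 genes in both lines. It stood at 4374, 4330.4 and 4438 CPM in PA-1 with DMSO and at 4186, 4053 and 4033 CPM in SK-OV-3 with DMSO. The groups did not overlap, yet they differed by only -0.10 on the log2 scale (SE 0.0431, adjusted p = 0.0442). That call was lost in 9 of 13 alternative settings, for example with scaling by library size alone (-0.06, adjusted p = 0.315).

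The paired repressor genes were expressed unequally in the lines. ZEB1 (chr10:31318495-31529814, plus strand) stood at 33.5, 40.0 and 38.8 CPM in PA-1 and at 60.8, 69.6 and 74.1 CPM in SK-OV-3, both with DMSO. ZEB2 (chr2:144364364-144524583, minus strand), its close homologue, stood at 60.3, 64.0 and 59.7 CPM in PA-1 and at 6.29, 6.77 and 6.35 CPM in SK-OV-3. ZEB1 was thus 1.81-fold higher in SK-OV-3 (log2 difference 0.86, SE 0.0878, adjusted p = 1.25e-06), while ZEB2 was 9.50-fold lower (-3.25, SE 0.0804, adjusted p = 1.28e-12). The ratio of ZEB1 to ZEB2 per kilobase of merged exons was 1.15 to 1.35 in PA-1 and 20.1 to 24.2 in SK-OV-3. In PA-1 the 2 genes were too close for their order to be firm, since with the length of the principal transcript ZEB1 averaged 6.90 and ZEB2 6.43 CPM per kilobase, against 5.82 and 4.59 with merged exons.

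SNAI1 and SNAI2, which code for the zinc finger repressors Snail and Slug, showed the same kind of exchange. SNAI1 (chr20:49982999-49988886, plus strand) stood at 21.4, 22.0 and 23.3 CPM in PA-1 and at 3.97, 2.80 and 4.04 CPM in SK-OV-3. SNAI2 stood at 14.2, 17.1 and 18.6 CPM in PA-1 and at 181, 179 and 171 CPM in SK-OV-3. SNAI1 was 6.17-fold lower in SK-OV-3 (-2.62, SE 0.147, adjusted p = 3.29e-09) and SNAI2 10.6-fold higher (3.41, SE 0.0871, adjusted p = 1.75e-12). Per kilobase, SNAI2 was 0.461 to 0.553 of SNAI1 in every PA-1 library with DMSO and 29.4 to 44.2 times SNAI1 in those of SK-OV-3. TWIST1 (chr7:19020991-19117672, minus strand) stood at 7.29, 6.45 and 7.98 CPM in PA-1 and at 15.6, 14.2 and 15.3 CPM in SK-OV-3, a difference of 1.05 (SE 0.126, adjusted p = 5.86e-06).

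**Figure D2:**
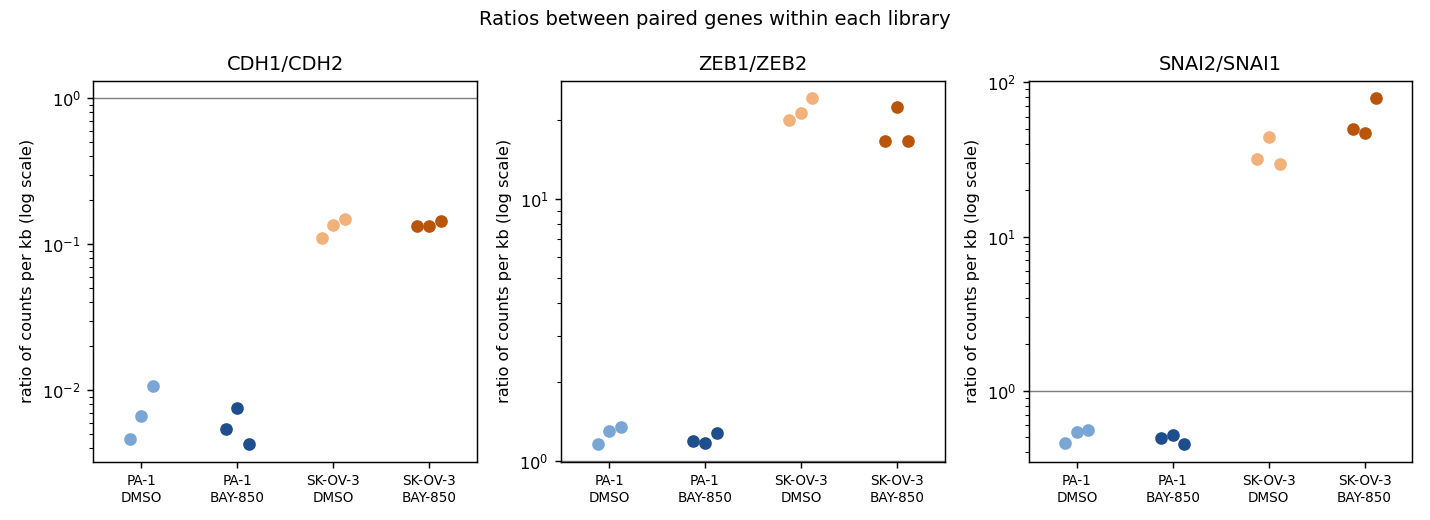
Ratio of expected counts per kilobase of merged exons between paired genes in each library, on log axes, by line and treatment; the grey line marks equality. ZEB1/ZEB2 lies at 1.15 to 1.35 in PA-1 with DMSO and at 20.1 to 24.2 in SK-OV-3 with DMSO, and SNAI2/SNAI1 lies below 1 in all PA-1 libraries and above 1 in all SK-OV-3 libraries.

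GRHL2, the activator of epithelial genes, was at or near 0 in every library. PA-1 with DMSO had 0, 0 and 7 reads and PA-1 with BAY-850 had 0, 2 and 0. SK-OV-3 with DMSO had 0, 3 and 7 reads, and all 3 SK-OV-3 libraries with BAY-850 had 0, which allows up to 0.0559 to 0.0738 CPM for counting error alone. No difference in GRHL2 was detectable at this depth.

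Ordered by mean CPM per kilobase of merged exons with DMSO, the PA-1 genes ran VIM (2345), CDH2 (53.6), SNAI1 (13.2), SNAI2 (6.85), ZEB1 (5.82), ZEB2 (4.59), TWIST1 (4.35), CDH1 (0.392), EPCAM (0.236) and GRHL2 (0.0125). SNAI2 and ZEB1, ZEB2 and TWIST1, and CDH1 and EPCAM lay within their spread over 3 libraries (SD 0.919 and 0.539, 0.176 and 0.459, 0.160 and 0.0684). In SK-OV-3 the order was VIM (2190), SNAI2 (72.9), EPCAM (19.0), ZEB1 (10.6), CDH2 (9.26), TWIST1 (9.02), SNAI1 (2.14), CDH1 (1.22), ZEB2 (0.484) and GRHL2 (0.0164). ZEB1, CDH2 and TWIST1 were neighbours within their spread there (SD 1.05, 0.350 and 0.435). EPCAM ranked above CDH2 in SK-OV-3, while CDH1 stayed among the lowest genes of the set in both lines.

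The second question was what BAY-850 did to these genes in PA-1. None of the 9 genes tested passed the threshold in PA-1, and none had an unadjusted p under 0.05, where 7.13% of all 15212 genes tested were called (4.65% higher and 2.48% lower). DESeq2 called none of the 7 to which it gave an adjusted p, and gave none for CDH1 and EPCAM. CDH1 stood at 1.55, 2.08 and 1.16 CPM with BAY-850, overlapping the 1.19 to 2.77 CPM with DMSO. EPCAM stood at 0.534, 0.229 and 0.263 CPM, from 9 to 22 reads a library. All 9 genes overlapped between treatments, where 27.5% of all genes tested did not.

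The intervals show what size of change these PA-1 libraries could have missed. For CDH1 the log2 difference was -0.28 with a 95% interval of -1.001 to 0.43, and for EPCAM -0.45 (-1.60 to 0.70), so neither gene was measured closely. Over the alternatives the EPCAM estimate ran from -0.93 (without BAY-850 replicate 1) to -0.23 (without BAY-850 replicate 2), with no call. CDH2, at 257, 247 and 243 CPM with BAY-850, had an interval of -0.06 to 0.19. VIM, at 4406, 4503 and 4761 CPM, had one of -0.04 to 0.15. For both abundant genes the interval left out any change beyond 0.20 on the log2 scale.

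The repressors of PA-1 had small negative estimates that did not pass. The smallest of these p-values was that of ZEB1, at 35.8, 33.1 and 32.6 CPM with BAY-850 (-0.15, SE 0.0787, adjusted p = 0.286). SNAI2, at 13.9, 16.1 and 13.5 CPM, had an estimate of -0.20 (95% interval -0.44 to 0.05), and ZEB2, at 62.6, 58.9 and 53.0 CPM, one of -0.08 (-0.22 to 0.07). SNAI1, at 19.5, 21.7 and 20.9 CPM, had -0.10 (-0.28 to 0.08), and TWIST1, at 7.01, 6.45 and 6.95 CPM, had -0.09 (-0.38 to 0.20). Across the 9 genes the median estimate was -0.10, against -0.00 over all genes tested.

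In SK-OV-3, EPCAM fell with BAY-850 to 0.505 of its level with DMSO. The 3 libraries with BAY-850 stood at 19.9, 18.2 and 19.2 CPM (mean 19.1 ± 0.860, SD, n = 3) and those with DMSO at 40.8, 38.7 and 34.9 CPM (38.1 ± 3.01, SD, n = 3). The lowest DMSO library was far above the highest BAY-850 library, and the difference was -0.98 on the log2 scale (SE 0.0895, 95% interval -1.18 to -0.79, adjusted p = 2.04e-05). EPCAM was the only call of 9 genes, with 20.4% of all 15348 genes called and 9.56% called lower. It was called in all 13 alternative settings run, with estimates from -1.04 to -0.93. The value was -1.002 without the third BAY-850 library, the one with counts for the fewest genes.

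Other markers moved in the same SK-OV-3 libraries as EPCAM. The summed SK-OV-3 markers went from 4309 to 4615 CPM with DMSO to 3181 to 3661 CPM with BAY-850. Of those 7 genes, ERBB2 (-0.43), KRT8 (-0.51) and KRT19 (-0.67) fell and PAX8 (0.55) rose, while KRT7, KRT18 and MUC16 did not pass. Of 5 fibroblast markers, LUM (-2.25), COL1A1 (-0.77) and COL1A2 (-1.15) fell, and their list went from 180.4 to 189 CPM to 88.7 to 117 CPM, with DCN, a defining marker, at 0 or 1 read in every SK-OV-3 library. Of 5 leukocyte markers only CD68 (0.46) passed, and their sum, in which no other marker reached 1 CPM, went from at most 29.1 CPM to 38.1 to 40.5 CPM. The 5 endothelial markers summed to 6.27 to 6.41 and 5.56 to 5.87 CPM. The part of these markers in the EPCAM result was not tested.

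SNAI1 and TWIST1 in SK-OV-3 had p-values under 0.05 before but not after adjustment. SNAI1 stood at 2.51, 2.58 and 1.75 CPM with BAY-850, all below the 3.97, 2.80 and 4.04 CPM with DMSO (-0.65, SE 0.272, adjusted p = 0.117). In a single fit of all 12 libraries SNAI1 passed (-0.67, adjusted p = 0.0117), so its call depended on which libraries were fitted together. TWIST1 stood at 17.8, 17.7 and 17.1 CPM with BAY-850, all above the 15.6, 14.2 and 15.3 CPM with DMSO (0.23, SE 0.0972, adjusted p = 0.115). TWIST1 passed in none of its 13 alternatives (adjusted p from 0.0967 to 0.330).

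**Figure D3:**
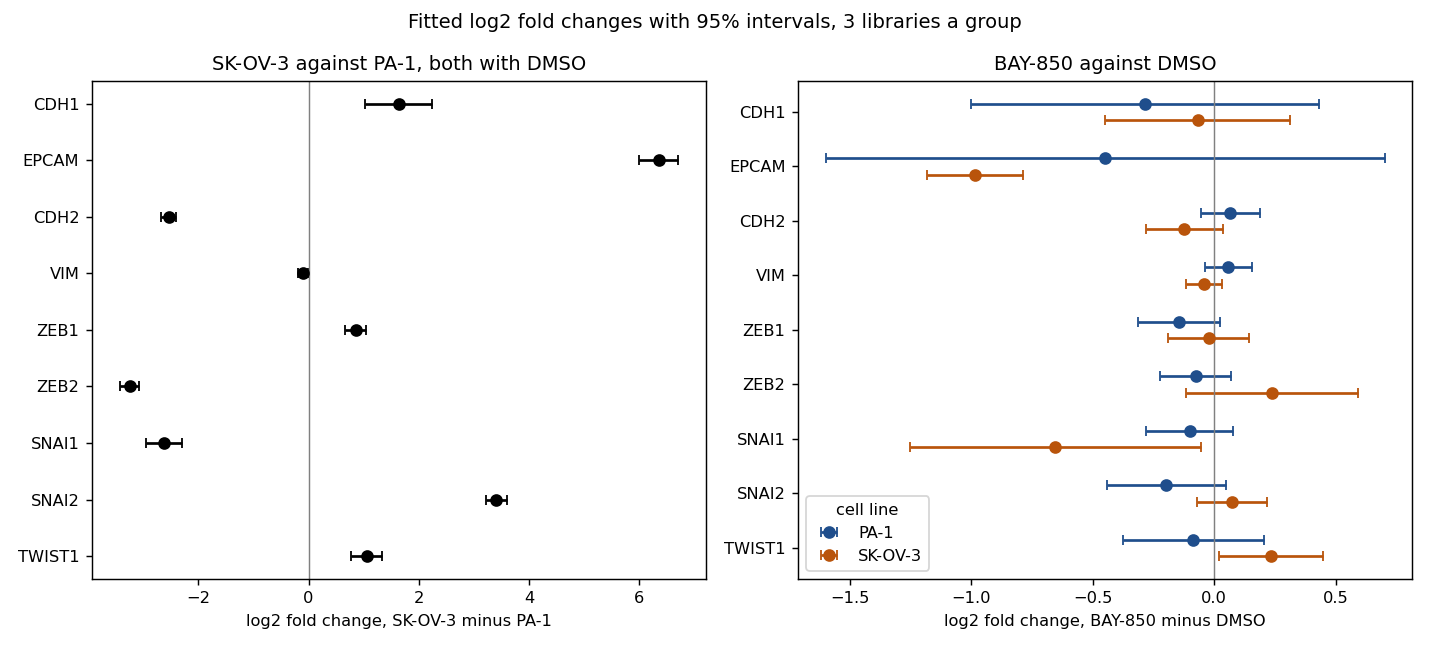
Fitted log2 fold changes with 95% intervals, from 3 libraries a group, for the 9 genes tested. The left panel compares SK-OV-3 with PA-1 under DMSO and the right panel BAY-850 with DMSO in each line; EPCAM in SK-OV-3 is at -0.98, and the interval of EPCAM in PA-1 runs from -1.60 to 0.70.

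The cadherins and VIM of SK-OV-3 stayed close to their DMSO levels. CDH1 stood at 5.88, 5.66 and 5.66 CPM with BAY-850, within the range with DMSO, and its estimate was -0.07 (95% interval -0.45 to 0.31). CDH2 stood at 39.3, 38.2 and 35.1 CPM, just below the 40.2 to 43.0 CPM with DMSO (-0.12, interval -0.28 to 0.03, adjusted p = 0.264). VIM stood at 3973, 3911 and 3927 CPM, also without overlap, but the estimate of -0.04 (interval -0.12 to 0.03) did not pass. The groups did not overlap for 5 of the 9 genes, CDH2, EPCAM, VIM, SNAI1 and TWIST1, against 38.6% of all genes tested.

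ZEB1 and SNAI2, the more abundant of each repressor pair in SK-OV-3, did not pass with BAY-850. ZEB1 stood at 68.6, 68.6 and 62.5 CPM (-0.02, 95% interval -0.19 to 0.15) and SNAI2 at 179.9, 175 and 199 CPM (0.07, interval -0.07 to 0.22). ZEB2 stood at 8.54, 6.35 and 7.78 CPM, of which the middle library lay within the DMSO range (0.24, interval -0.12 to 0.59). The ratio of SNAI2 to SNAI1 per kilobase was 47.0 to 78.8 with BAY-850, above the 29.4 to 44.2 with DMSO in every library. The ratio of CDH2 to CDH1 was 6.93 to 7.55 with BAY-850, inside its range with DMSO. These ratios are given as values without a test.

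Whether the lines responded differently was tested with an interaction term over 16830 genes, of which 14.5% were called (6.7% with a higher and 7.77% with a lower response in SK-OV-3) and none of the 9 genes here. For EPCAM the difference of the responses, SK-OV-3 minus PA-1, was -0.57 (SE 0.355, 95% interval -1.33 to 0.18, adjusted p = 0.315), so the fall in SK-OV-3 was not shown to differ from the poorly measured response in PA-1. Over the alternatives this difference ran from -0.80 to -0.09, with no call. SNAI1 (-0.57), CDH2 (-0.20) and ZEB2 (0.30) were under 0.05 only before adjustment, with adjusted p-values of 0.113, 0.121 and 0.170. DESeq2 called none of the 9 either. The comparison of the lines and both BAY-850 comparisons share the DMSO libraries.

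Further cadherin genes were looked at as a family. Of 20 other cadherin genes listed, 12 passed the filter between the lines with DMSO. Of these 12, 3 were higher in SK-OV-3, 8 lower and 1 not past the threshold, against 40.1% higher and 40.2% lower of all genes. Their median was -1.49 on the log2 scale, against 0.00 over all genes tested. CDH16, the kidney-specific cadherin, had no read in the PA-1 libraries with DMSO and stood at 58.4 CPM in SK-OV-3, at least 673-fold higher against the highest single-library floor of 3 counts. CDH18 was likewise at least 91.8-fold higher in SK-OV-3, at 7.97 CPM, and CDH8 at least 25.1-fold lower, at 1.99 CPM in PA-1 and without a read in SK-OV-3. CDH13, which codes for a cadherin anchored to the membrane by a lipid, stood at 0.482 and 24.3 CPM. CDH6, an embryonic kidney cadherin, stood at 426 CPM in PA-1 and 94.2 CPM in SK-OV-3. Per kilobase of merged exons CDH2 was above CDH6 in PA-1 (53.6 against 47.8 CPM per kilobase) and CDH16 above CDH6 in SK-OV-3 (19.8 against 10.6).

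Cadherin genes on the chromosome of CDH1 differed in both directions between the lines. On chromosome 16 lie 8 of the 22 cadherin genes examined, of which 3 (CDH1, CDH13 and CDH16) were higher in SK-OV-3, 4 (CDH3, CDH5, CDH8 and CDH15) were lower and CDH11 was not tested. Of all genes tested 40.1% were higher and 40.2% lower, so calls both ways were the rule between these lines. The 8 genes are spread widely, from CDH8 at chr16:61647242 to CDH15 at chr16:89195492. CDH3, the P-cadherin gene, ends at chr16:68722616, next to the start of CDH1 at 68737225, and stood at 3.26 CPM in PA-1 and 1.68 CPM in SK-OV-3, a log2 difference of -0.96 against 1.63 for CDH1.

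**Figure D4:**
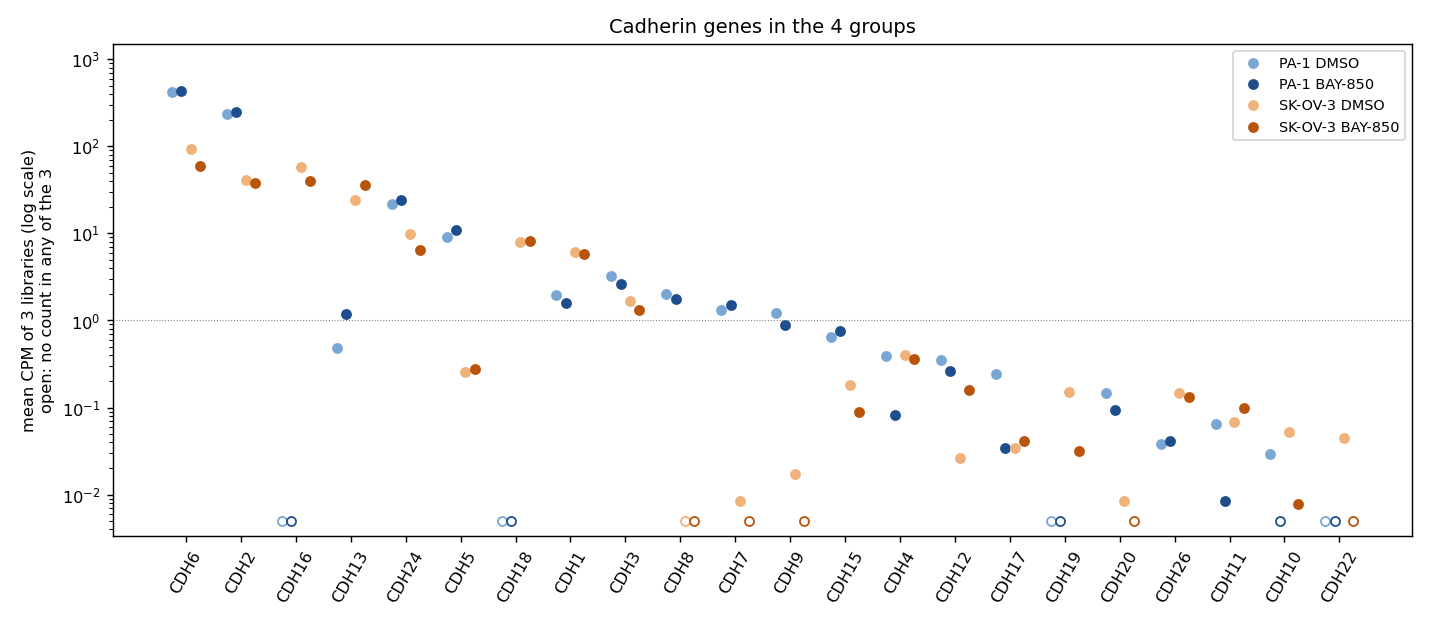
Mean level of 22 cadherin genes in each of the 4 groups, in CPM on a log axis, with open circles at the foot for groups without a read in any of 3 libraries. CPM is not corrected for gene length; CDH6 stands at 426 CPM and CDH2 at 238 CPM in PA-1 with DMSO, and CDH16 and CDH18 have reads only in the SK-OV-3 groups.

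With BAY-850, cadherins other than CDH1 and CDH2 moved in SK-OV-3. CDH6 fell from 94.2 to 59.4 CPM (-0.65, SE 0.0699, adjusted p = 7.16e-05) and CDH24 from 9.80 to 6.45 CPM (-0.59, adjusted p = 0.0168). CDH13 rose from 24.3 to 35.6 CPM (0.57, SE 0.0821, adjusted p = 0.000624). In all 3 lower and 1 higher of 8 tested passed, against 9.56% lower and 10.8% higher of all genes, with a median of -0.26. In PA-1 none of 10 tested passed, where 7.13% of all genes were called. The response differed between the lines for CDH6 (-0.70, adjusted p = 0.000847), CDH24 (-0.74, adjusted p = 0.00564) and CDH13 (-0.74, adjusted p = 0.0275). These were the only calls of 13 tested for it, where 14.5% of all genes were called. For CDH13 the negative sign comes from a larger estimate in PA-1 (1.29, from 0.482 to 1.18 CPM), which did not itself pass.

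The adherens junction genes, which include nectin genes besides those whose products link cadherins to actin, moved both ways in SK-OV-3 with BAY-850. Of 12 tested, 2 rose and 2 fell, against 10.8% and 9.56% of all genes tested, with a median of -0.06 against -0.01. JUP, which codes for plakoglobin, rose from 64.8 to 88.1 CPM (0.46, adjusted p = 0.000409) and PVRL2, a nectin gene, from 78.8 to 106.9 CPM (0.45, adjusted p = 0.000172). VCL, which codes for vinculin, fell from 471 to 386 CPM (-0.28, adjusted p = 0.00314). In PA-1 none of 11 tested passed, where 7.13% of all genes were called. The interaction passed for JUP (0.32), PVRL2 (0.41) and VCL (-0.46), with adjusted p-values of 0.0201, 0.000766 and 0.00165.

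Tight junction and desmosome genes gave 8 calls of 21 in SK-OV-3, 4 higher and 4 lower, with a median of -0.06, where 10.8% of all genes were called higher and 9.56% lower. The claudin genes, which code for the sealing strands of tight junctions, held the largest changes. CLDN7 rose from 4.98 ± 1.40 to 9.48 ± 2.70 CPM (SD, n = 3; 0.93, adjusted p = 0.0196), although its groups overlapped. CLDN4 rose from 36.1 to 62.6 CPM (0.80, adjusted p = 3.10e-05) and CLDN1 from 152 to 246 CPM (0.71, adjusted p = 3.20e-06). In the same libraries EPCAM fell. In PA-1 only PPL, the periplakin gene, passed among 16, where 7.13% of all genes were called. PPL rose from 211 to 246 CPM (0.22, adjusted p = 0.0438). The interaction called 3 of 21 higher and 5 lower, against 6.7% and 7.77% of all genes. The largest of these estimates were those of CLDN1 (0.81), CLDN4 (0.69) and the plakophilin gene PKP2 (-0.58), with adjusted p-values of 0.00317, 0.00373 and 0.00773.

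Other epithelial genes showed 3 rises and 2 falls among 15 tested in SK-OV-3, against 10.8% and 9.56% of all genes, with a median of -0.01. ESRP1 and ESRP2, the splicing factors of epithelial cells, fell from 1.89 to 0.542 CPM (-1.76, adjusted p = 0.0291) and from 8.55 to 5.08 CPM (-0.74, adjusted p = 0.00697). In PA-1, ELF3, an epithelial ETS factor, rose from 11.4 to 19.9 CPM (0.80, adjusted p = 0.000731). It was the only call of 12 there, where 7.13% of all genes were called. The response of ELF3 differed from that in SK-OV-3 (-0.56, adjusted p = 0.0233). So did that of GRHL1, a relative of GRHL2 (0.95, adjusted p = 0.0124), which passed in neither line on its own. ELF3 and GRHL1 were the only calls of 16 for the interaction, where 14.5% of all genes were called.

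Between the lines, 11 of 16 other epithelial genes tested were higher in SK-OV-3 with DMSO and 4 lower, against 40.1% and 40.2% of all genes. The most negative of the 16 estimates was -5.97 on the log2 scale. MAL2 stood at 0.568 CPM in PA-1 and 100.4 CPM in SK-OV-3, and OVOL2, an epithelial repressor of ZEB1, had no read in PA-1 and 2.23 CPM in SK-OV-3, at least 25.7-fold higher. Of 21 tight junction and desmosome genes tested, 7 were higher in SK-OV-3 and 10 lower, with a median of -0.07. Claudins were divided, with CLDN6 at 398 CPM in PA-1 and 0.706 CPM in SK-OV-3, and CLDN3 at 0.0568 and 7.10 CPM. MARVELD2, the gene of the tight junction protein tricellulin, stood at 0.0472 and 4.06 CPM.

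Among other mesenchymal genes in SK-OV-3, 3 of 16 rose and 2 fell with BAY-850, against 10.8% and 9.56% of all genes, with a median of -0.06. PRRX1, a homeobox gene of mesenchyme, fell from 5.59 to 1.52 CPM (-1.87, SE 0.242, adjusted p = 0.000280), and SPARC, a matrix protein gene, from 337 to 190.5 CPM (-0.81, adjusted p = 1.00e-06). FN1, the fibronectin gene, rose from 1375 to 2049 CPM (0.59, adjusted p = 4.57e-05). FN1 was also the only call of 15 in PA-1, where 7.13% of all genes were called. It rose there from 89.2 to 108 CPM (0.28, adjusted p = 0.0313). The response differed between the lines for SPARC (-0.76, adjusted p = 1.02e-06) and for the lysyl oxidase gene LOXL2 (0.40, adjusted p = 0.00233), which rose in SK-OV-3 from 314 to 463 CPM. LEF1 was also called by that test, but had no read in SK-OV-3 with BAY-850 and 13 reads in all with DMSO. In all, that test called 1 of 18 higher and 3 lower, against 6.7% and 7.77% of all genes.

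With DMSO, 11 of 17 other mesenchymal genes were higher in SK-OV-3 and 4 lower, against 40.1% and 40.2% of all genes. TWIST2, the homologue of TWIST1, had no read in PA-1 with DMSO and 24.3 CPM in SK-OV-3, at least 280-fold higher. PRRX1 was at least 64.4-fold higher, and LEF1, a factor of the Wnt pathway, stood at 15.2 CPM in PA-1 and 0.111 CPM in SK-OV-3. The medians of the other epithelial and other mesenchymal lists were 2.12 and 0.77 higher in SK-OV-3 on the log2 scale with genes without a read set at their bound, against 0.00 over all genes tested.

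**Figure D5:**
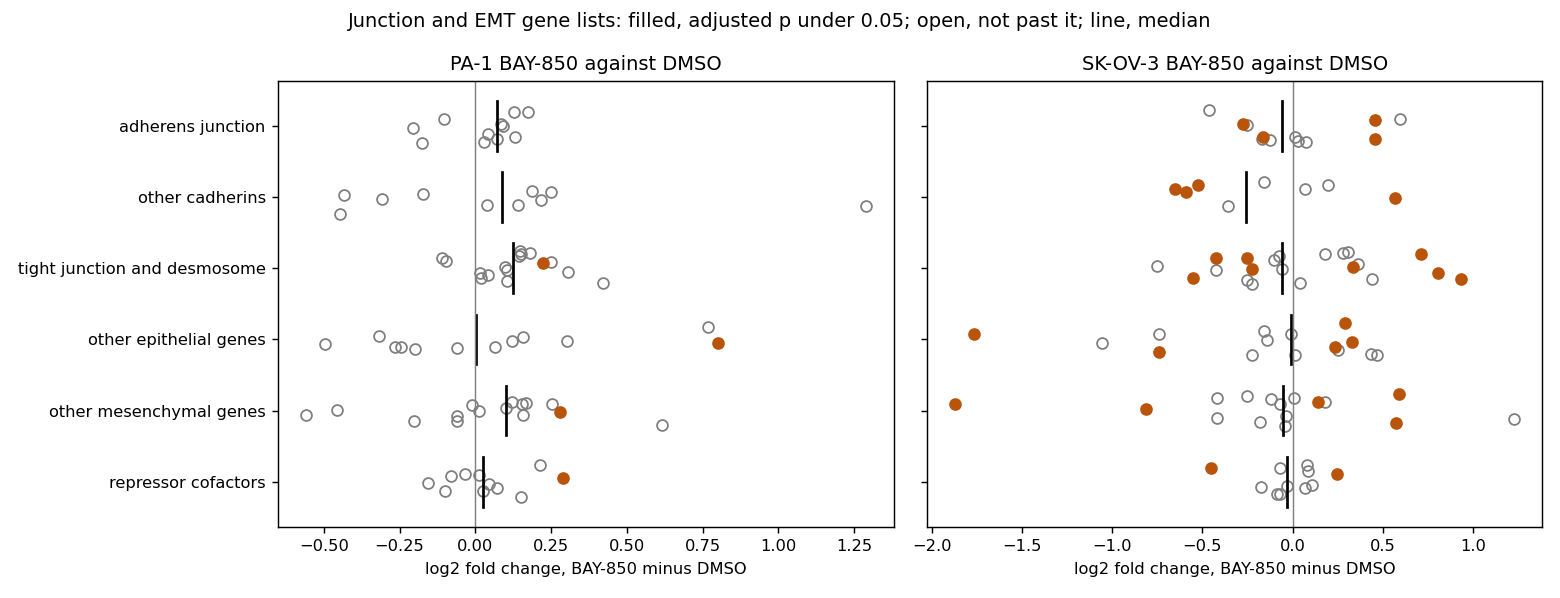
Log2 fold change with BAY-850 of each gene tested in 6 lists, in PA-1 (left) and SK-OV-3 (right). Filled points passed the adjusted p of 0.05, open points did not, and the black line is the list median; medians lie between 0.00 and 0.12 in PA-1 and between -0.26 and -0.01 in SK-OV-3.

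Cofactor genes through which the ZEB and SNAI proteins act or with which they cooperate were called about as often as all genes tested within each line. In SK-OV-3 with BAY-850, EZH2, a histone methyltransferase gene, fell from 32.6 to 23.6 CPM (-0.45, adjusted p = 0.00835) and CTBP2, a corepressor gene, rose from 101 to 118 CPM (0.25, adjusted p = 0.00867), the only calls of 11, where 20.4% of all genes were called. In PA-1, SMARCA4, a chromatin remodeller gene, rose from 193 to 236 CPM (0.29, adjusted p = 0.0133), the only call of 11, where 7.13% of all genes were called. The response differed between the lines for EZH2 (-0.38), SMARCA4 (-0.33) and the corepressor gene CTBP1 (-0.26), with adjusted p-values of 0.0466, 0.0135 and 0.0417, which makes 3 of 11 where 14.5% of all genes were called. With DMSO, 6 of the 11 were lower in SK-OV-3 and 3 higher, against 40.2% and 40.1% of all genes. The largest of these differences were those of EZH2 (-1.04), EED (-0.89) and CTBP2 (-0.55).

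Antisense genes next to the set were measured separately in the deposited table. ZEB1-AS1 (chr10:31206278-31320447, minus strand), within which the ZEB1 window printed above lies, stood at 18.4 CPM in PA-1 with DMSO and 14.3 CPM with BAY-850, and fell (-0.36, SE 0.0965, adjusted p = 0.0368). ZEB1 itself had an estimate of -0.15 in those libraries and did not pass. In SK-OV-3 ZEB1-AS1 stood at 11.6 and 12.7 CPM (0.14, adjusted p = 0.464), and the difference of the responses did not pass (0.49, adjusted p = 0.0521). Between the lines ZEB1-AS1 was lower in SK-OV-3 (-0.67, adjusted p = 0.000126), where ZEB1 was higher. VIM-AS1 stood at 0.549 CPM in PA-1 and 2.36 CPM in SK-OV-3 (2.103, adjusted p = 7.27e-05), while VIM was nearly level. SNAI3-AS1 was also higher in SK-OV-3 (1.32, adjusted p = 0.000936), and ZEB2-AS1 did not pass the filter. VIM-AS1 and SNAI3-AS1 passed with BAY-850 in neither line. The libraries mark the strand, but whether the counting used it is not given in the sources used here, so reads of overlapping sense and antisense genes may be divided by estimate.

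Genes with the profile most like that of 4 members were found over the 4 group means, by the root mean square difference of log2 CPM after each gene was centred, among 14093 genes. For EPCAM they were ITGA4, GUCY1B3 and COL8A1, at 0.108, 0.134 and 0.137. COL8A1 stood at 0.142 and 0.143 CPM in PA-1 with DMSO and BAY-850 and at 15.6 and 7.87 CPM in SK-OV-3. For CDH1 they were ERGIC2, MBOAT2 and POLR2L (0.0149, 0.0363 and 0.0372), for CDH2 they were PRPH, BCAS3 and GLDC (0.0125, 0.0186 and 0.0231), and for VIM they were SMIM11, SAP130 and RPP21 (0.00607, 0.00613 and 0.0114). Likeness over 4 means describes these libraries and was not tested.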

How the data were processed

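RNA was sequenced from 12 libraries in 4 groups. The deposited values are expected counts for 26475 gene symbols, which the authors did not scale between libraries. The submitters' processing notes name Bowtie2 2.1.0, RSEM 1.2.15 and hg38, without their roles. The extraction protocol describes oligo-dT selection and strand marking with dUTP, while the series' design text names ribosomal RNA depletion. RSEM divides reads that fit several genes, so values of overlapping genes are estimates.

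Expected counts were rounded, scaled by TMM and filtered with filterByExpr in edgeR 4.0.16 (R 4.3.3), and tested by its quasi-likelihood test over all genes tested, with the Benjamini-Hochberg adjustment. Each line was fitted on its own 6 libraries, the lines on the 6 DMSO libraries, and the difference of responses on all 12. Standard errors are the log2 fold change divided by the square root of F. Lengths and positions come from GENCODE v29 on GRCh38, matched by symbol, and promoter windows from RefSeq. Replicates were called biological by the submitters. Intervals and floors cover counting or library error only. The tests were checked on simulated counts.

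The members and lists were chosen with earlier results of these data known. All 10 members are named. From each of 6 lists, up to 3 genes per comparison with the largest change among those called are named (1 gene is not reported here), with the antisense neighbours and the 3 genes most like CDH1, CDH2, EPCAM and VIM. Marker genes and neighbours of CDH1 named besides were chosen after their values were seen. Alternatives were DESeq2 1.42.0, RLE factors, library size only, 2 other filters, the replicate block, one fit of 12 libraries and leaving out each library.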

Additional observations from a re-analysis of the deposited data

How the results depend on the processing

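Of the 10 calls made on members (1 in SK-OV-3 with BAY-850 and 9 between the lines), 121 of 130 alternative values kept direction and side of the threshold, and the other 9 are those of VIM between the lines (adjusted p from 0.0611 to 0.315 in those 9). Of 379 alternative values for the results not called, 371 kept both, 3 passed and 5 turned sign. The 5 sign changes are of estimates whose 95% intervals include 0: CDH1 in PA-1 without DMSO replicate 3 (0.0530), CDH1 in SK-OV-3 without DMSO replicate 3 (0.00816), ZEB1 in SK-OV-3 without DMSO replicate 3 (0.0427) and without BAY-850 replicate 3 (0.00940), and the interaction of CDH1 without PA-1 DMSO replicate 3 (-0.124). Over all libraries left out in turn these 4 estimates ran from -0.537 to 0.0530, from -0.186 to 0.00816, from -0.0924 to 0.0427 and from -0.124 to 0.455. The 3 that passed are SNAI1 in SK-OV-3 in one fit of 12 libraries, which makes 2 members called there, and the interactions of SNAI1 without SK-OV-3 DMSO replicate 2 (-0.71, adjusted p = 0.0432) and of ZEB2 without SK-OV-3 BAY-850 replicate 2 (0.43, adjusted p = 0.0371), each 1 member called against 0. Over the interaction's alternatives the adjusted p of SNAI1 ran from 0.0432 to 0.227 and that of ZEB2 from 0.0371 to 0.329. Leaving out each library gave 0 to 1 members called for the interaction, 8 to 9 between the lines, 1 to 1 in SK-OV-3 and 0 to 0 in PA-1.

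Among all genes, the 1085 calls in PA-1 became 1737 with DESeq2, 466 with library size only and 683 in one fit of 12 libraries. Leaving out libraries gave 340 to 1228 calls in PA-1 (489 without DMSO replicate 1, 340 without DMSO replicate 2, 344 without BAY-850 replicate 2) and 1781 to 3902 in SK-OV-3 (1781 without DMSO replicate 2, 1983 without DMSO replicate 3), 12577 to 12875 between the lines and 1786 to 2607 for the interaction. The cause of these changes was not tested. With library size only, 235 of the 466 calls in PA-1 were higher and 231 lower, against 707 and 378 with TMM.

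Replicate numbers did not pair the libraries: correlations of same-numbered libraries' deviations reached at most 0.0440, and with the replicate block 931, 2716, 12830 and 1957 genes and 0, 1, 9 and 0 members were called in PA-1, SK-OV-3, between the lines and for the interaction. No library deviated most with its own number in PA-1, and 1 of 3 did in SK-OV-3. Depth limits EPCAM and CDH1 in PA-1, and GRHL2 everywhere.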
